A study of Mus musculus with 9 samples.

Results

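The 8 genes described here carry iron into and out of intestinal epithelial cells, store it and sense it: Cybrd1, Slc11a2, Heph, Slc40a1, Tfrc, Fth1, Aco1 and Ireb2. They were taken by gene symbol from 2 expression tables of 23951 genes each. All 8 were present in both tables and all 8 passed the filter on low values. RNA was sequenced from 9 libraries of mouse jejunal crypts, 3 per group and numbered 0 to 2. Control animals are labelled as vehicle-treated, but the series' design text says that they were not injected, and their alleles are not given further. The Smad4 KO group was Smad4f/f;Villin-CreER(T2) given tamoxifen, which deletes Smad4, through which both BMP and TGF-beta signals reach the nucleus. The double mutants were Smad4f/f; Ex3f/+;Villin-CreER(T2) given tamoxifen, and so also carried 1 Ctnnb1 allele that the recombinase converts to stabilised beta-catenin. Injections ran for 4 days, with collection 1 day later. The Villin promoter limits the recombinase to intestinal epithelium, so other cells in a preparation kept the unrecombined alleles. Both mutant groups received tamoxifen and the controls did not, so effects of the drug or the recombinase and of the alleles cannot be told apart. Ages, pooling and whether each library came from its own mouse are not given, so p-values measure the spread between these libraries.

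Dietary iron is reduced at the brush border, enters the enterocyte as ferrous iron, and is either stored in ferritin or exported across the basolateral membrane, where it is oxidised and bound to transferrin. Crypt cells, which face little dietary iron, take up transferrin-bound iron from the blood side. Iron regulatory proteins, encoded by Aco1 and Ireb2, bind iron-responsive elements (IREs) in mRNAs when iron is scarce. A bound IRE near the start of a ferritin or ferroportin mRNA blocks its translation, while bound IREs in the tail of the transferrin receptor mRNA protect it from decay. These RNA values report mRNA level only and say nothing of translation.

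The IREs are shown because they are the sequences through which the proteins of Aco1 and Ireb2 act on mRNAs, those of Fth1, Slc40a1 and Tfrc among them. GENCODE release M21 protein-coding transcripts (GRCm38) were searched for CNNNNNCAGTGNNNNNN on the transcript strand, requiring that the 5 bases after the first C pair with the last 5, G-U pairs allowed. Of 21875 protein-coding genes, 0.709% held such a hairpin in a UTR, as did 3 of the 8 iron genes: Fth1, Slc40a1 and Tfrc. Ftl1, the light chain of ferritin, is shown beside them. Each site is printed 5′ to 3′ as DNA, with the CAGTG of the loop in capitals. The deposited values were made on mm9, so these GRCm38 positions locate the sites only.
Fth1, 5′ UTR, chr19:9982732-9982760, plus strand: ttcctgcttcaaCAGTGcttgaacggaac
Ftl1, 5′ UTR, chr7:45459779-45459807, minus strand: gtcttgcttcaaCAGTGtttgaacggaac
Slc40a1, 5′ UTR, chr1:45925465-45925493, minus strand: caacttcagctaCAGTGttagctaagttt
Tfrc, 3′ UTR, chr16:32631219-32631247, plus strand: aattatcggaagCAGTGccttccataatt
Tfrc, 3′ UTR, chr16:32631598-32631626, plus strand: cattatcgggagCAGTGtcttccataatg
Tfrc, 3′ UTR, chr16:32631663-32631691, plus strand: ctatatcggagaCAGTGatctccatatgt
Tfrc, 3′ UTR, chr16:32631710-32631738, plus strand: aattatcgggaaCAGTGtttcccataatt
The match is of letters only. No hairpin of exactly this form was found in the UTRs of the other 5 genes. The search allowed no mismatch or bulge in the 5 pairs, so it misses IREs of other forms. It therefore cannot show that a gene, Slc11a2 included, has no IRE, nor that the sites listed for a gene are all it has.

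Values are FPKM, fragments per kilobase of transcript, scaled to the sequencing depth of the library. The absolute depth is unknown. A rough relative depth, read from the commonest ratio of low values (7 to 11 genes per library), was 0.964 to 1.4 times that of control 0 and carries the authors' scaling as well. Smad4 was at 46.1, 55.5 and 47.8 FPKM in the controls of the first table, against 11, 9.96 and 10.8 in Smad4 KO, and at 11.2, 10.2 and 9.95 in the double mutants against 47.5, 58.8 and 49.8 in the controls of that table. Markers of crypt and villus epithelium were all detected: summed FPKM in the first table ran from 9310 to 150319 for 8 Paneth cell markers, from 341 to 1631 for 10 stem cell markers and from 1722 to 18148 for 18 enterocyte markers. Library Smad4 KO 2 and library double mutant 0 stood apart in stromal and blood transcripts. Dcn, a fibroblast proteoglycan, was at 47.8 and 27.2 FPKM in them and at most 5.13 in any other library, and Hbb-b1, a globin, was at 38.5 and 26.1 and at most 4.67 elsewhere. By Xist and Y-linked transcripts, controls 0 and 1, Smad4 KO 0 and double mutant 1 were male and the other 5 libraries female.

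In control crypts the set was headed by the ferritin heavy chain. Fth1 was at 756 to 1082 FPKM, followed by Tfrc at 88.9 to 135, Aco1 at 49.8 to 70.8, Heph at 28.1 to 54.6, Ireb2 at 26.5 to 32.6 and Slc11a2 at 19.4 to 29.4 FPKM. The reductase Cybrd1 (1.78 to 4.99 FPKM) and the exporter Slc40a1 (1.32 to 3.77 FPKM) were lowest. Neighbours in this order overlapped between libraries except Fth1 and Tfrc, Tfrc and Aco1, and Slc11a2 and Cybrd1. FPKM is scaled by transcript length, so levels may be set side by side, but mRNAs with many processed gene copies can be counted low: Gapdh was listed at 0.609 FPKM on average. The ferritin genes have such copies too.

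Limma called the oxidase of iron export and 1 of the 2 iron sensors lower in the double mutant libraries. Heph was at 45.8% and Aco1 at 59.4% of the control mean. Those were 2 of 8 genes, and none was called higher. Of the 11762 genes tested there, 18.5% were called, 9.09% lower and 9.39% higher. Both calls depended on the libraries and settings used. Each held in 1 of the 6 fits that left out 1 library, and ended with sex as a covariate and with no filter. The exact two-sided permutation p was 0.1 for each, the smallest that 3 against 3 allows. All 3 double mutants lay below all 3 controls for Heph, Aco1, Slc40a1 and Fth1, that is 4 of 8 genes, against 21.3% of all genes. None of the 8 lay above all controls, against 21.3% of all genes. In Smad4 KO 0 of 8 passed limma, where 0.0338% of 11849 genes did. Aco1 alone had an unadjusted p below 0.05 (19.1% of all genes did). It was also the only one of the 8 with all Smad4 KO libraries below all controls (12.2% of all genes), and none lay above (14.2% of all genes). All 8 log2 fold changes were negative in each comparison, against 50.4% of all genes in Smad4 KO and 50.1% in the double mutants. Their medians were -0.26 in Smad4 KO and -0.60 in the double mutants, while the median of all genes was -0.003 and -0.001. On leaving out a library the sign turned for Cybrd1 and Slc11a2 in Smad4 KO and for Tfrc in the double mutants. The mean FPKM of Cybrd1 in Smad4 KO was 104% of control. All 18 enterocyte, all 8 Paneth cell and all 5 tested tuft cell markers were likewise negative in each comparison, and no other cell type list was. The comparisons share their controls, so the signs are not independent. The 8 genes were also chosen with earlier results of these data known. Bulk RNA cannot tell fewer cells of a type from less RNA per cell.

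**Figure D1:**
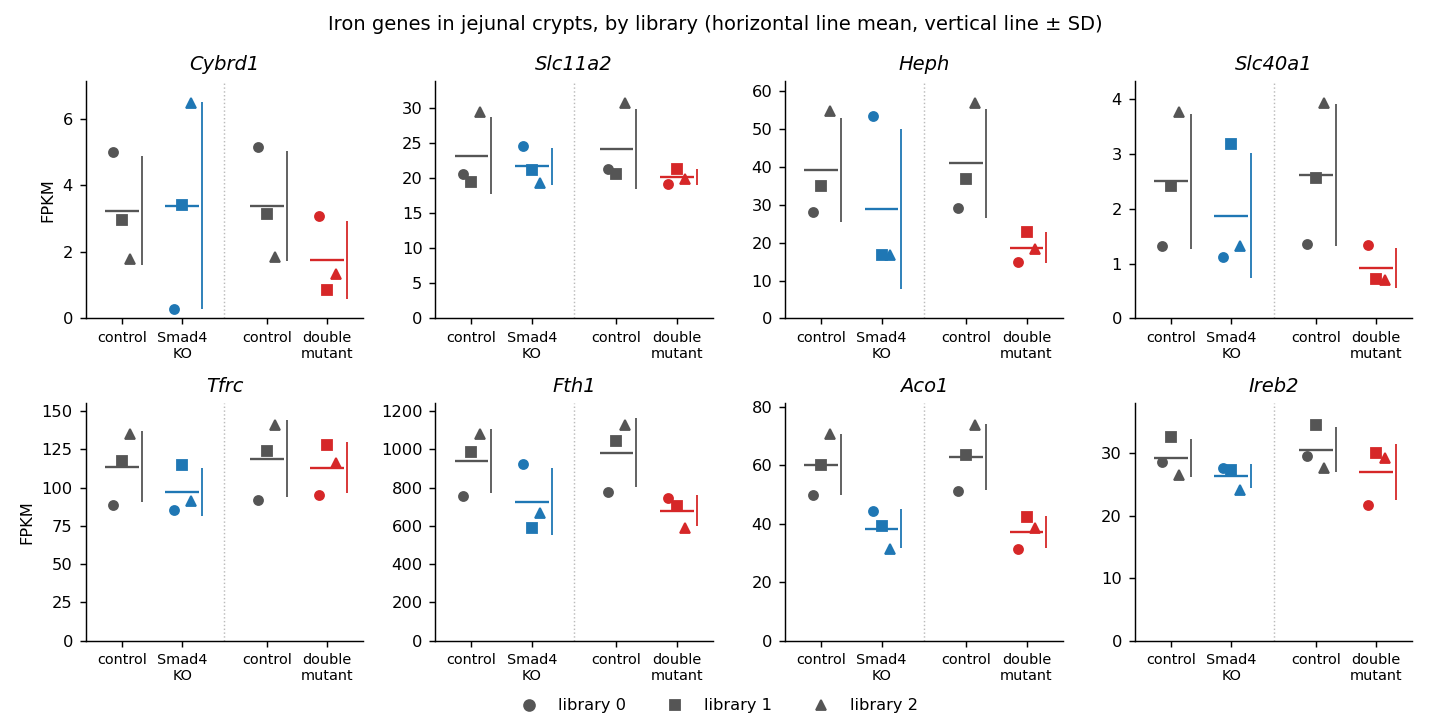
FPKM of the 8 iron genes in each library (circle, library 0; square, library 1; triangle, library 2), with the mean and SD of 3 libraries; left of each dotted line are controls and Smad4 KO from 1 table, right of it the same controls and the double mutants from the other. Aco1 lies below all controls in both mutant groups (31.3 to 44.4 FPKM against 49.8 to 73.9), while Heph in Smad4 KO splits into 1 library at 53.3 and 2 at 16.8 and 16.6.

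Brush border uptake was not called in either mutant. Cybrd1 encodes the ferric reductase of the apical membrane. It was at 4.99, 2.95 and 1.78 FPKM in the controls 0, 1 and 2 and at 0.273, 3.4 and 6.48 in Smad4 KO 0, 1 and 2, so the mutant libraries spanned more than the whole control range. Its difference was -0.22 on the log2(FPKM + 1) scale, with a 95% interval from -1.88 to 1.45 (limma adjusted p = 0.891). At these low levels it moved with the pseudocount, to -0.59 with 0.1 and -0.03 with 5. In the double mutants it was at 3.08, 0.861 and 1.34 FPKM against 5.14, 3.13 and 1.86. Libraries 1 and 2 lay below the controls and library 0 did not (difference -0.68, interval -1.62 to 0.26, limma adjusted p = 0.257; -0.97 and -0.30 with pseudocounts of 0.1 and 5).

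Slc11a2 encodes the proton-coupled ferrous iron importer DMT1. It was at 20.6, 19.4 and 29.4 FPKM in the controls, 24.5, 21.1 and 19.3 in Smad4 KO, and 19.1, 21.3 and 19.8 in the double mutants (21.2, 20.5 and 30.7 in their controls). Control 2 was the highest library of each table and the rest overlapped. The log2 differences were -0.07 (interval -0.53 to 0.38, limma adjusted p = 0.858) and -0.23 (interval -0.63 to 0.16, limma adjusted p = 0.347). Gene-level FPKM does not separate the transcripts of Slc11a2 that differ in their 3′ ends.

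On the export side Heph was called lower in the double mutants. It encodes hephaestin, the membrane-bound copper oxidase that oxidises iron as it leaves the enterocyte. In the double mutants Heph was at 14.8, 22.9 and 18.4 FPKM, against 29, 36.8 and 56.9 in controls. Every double mutant lay below every control, and the means were 18.7 ± 4.06 and 40.9 ± 14.4 FPKM (SD, n = 3 each). The log2 fold change was -1.05 (SE 0.27, limma adjusted p = 0.0447), and the exact two-sided permutation p was 0.1, the smallest that 3 against 3 allows. In Smad4 KO, libraries 1 and 2 were at 16.8 and 16.6 FPKM, below all controls (28.1, 34.8 and 54.6), but library 0 was at 53.3, so the groups overlapped (difference -0.59, interval -1.81 to 0.64, limma adjusted p = 0.555). The call in the double mutants held without control 0. It ended without control 1, control 2 or any of double mutants 0, 1 and 2 (limma adjusted p from 0.0684 to 0.135), with sex as a covariate (0.0691), with no filter (0.076) and with no mean-variance trend (0.0511). Within males the values were 29 and 36.8 in controls and 22.9 in double mutant 1, and within females 56.9 in control 2 and 14.8 and 18.4 in double mutants 0 and 2.

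Slc40a1 encodes ferroportin, the iron exporter of the basolateral membrane. It was at 1.35, 0.716 and 0.705 FPKM in the double mutants against 1.36, 2.56 and 3.94 in controls. Double mutant 0 and control 0 were almost level, so the groups barely separated. The mean was 35.2% of control (0.924 ± 0.37 against 2.62 ± 1.29 FPKM, SD, n = 3 each). The log2 fold change of -0.87 (SE 0.30) did not pass (limma adjusted p = 0.0959), and it passed without control 0 (-1.14, limma adjusted p = 0.0439). Smad4 KO had 1.12, 3.19 and 1.32 FPKM against 1.32, 2.42 and 3.77, and the groups overlapped (difference -0.29, interval -1.21 to 0.63, limma adjusted p = 0.703). These levels are close to the pseudocount of 1, which shrinks the fold changes: in the double mutants that of Slc40a1 was -1.35 with a pseudocount of 0.1 and -0.35 with 5, not called with either.

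**Figure D2:**
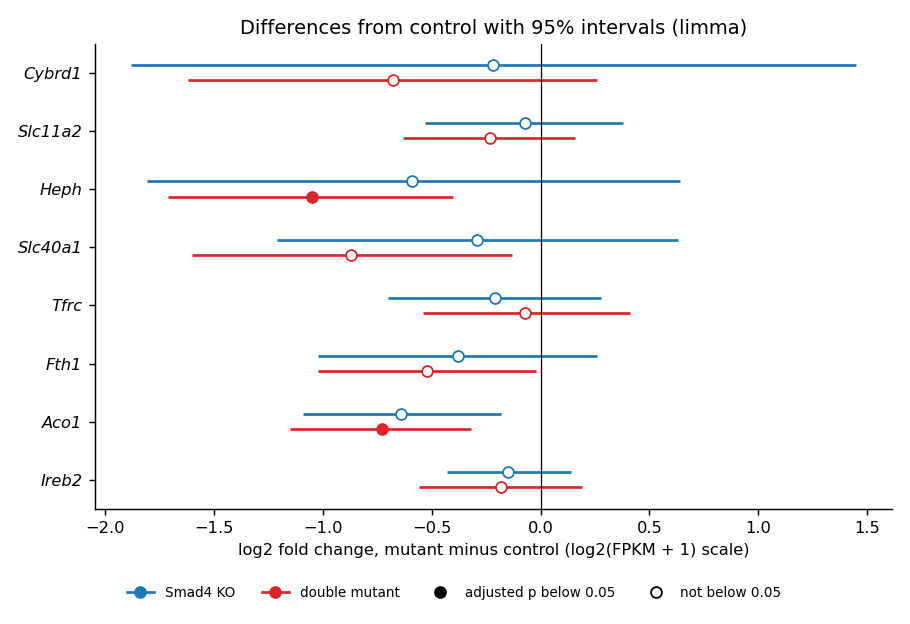
Difference between mutant and control on the log2(FPKM + 1) scale for each iron gene with its 95% interval from limma, in Smad4 KO (blue) and the double mutants (red); filled points passed at an adjusted p below 0.05. Only Heph (-1.05) and Aco1 (-0.73) in the double mutants are filled, and the widest interval is that of Cybrd1 in Smad4 KO (-1.88 to 1.45).

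Tfrc, the receptor for transferrin-bound iron and the carrier of the 4 3′ UTR hairpins above, was not called in either comparison. It was at 88.9, 117 and 135 FPKM in the controls and 85.5, 115 and 91.3 in Smad4 KO, and at 91.6, 124 and 141 in controls and 95.1, 128 and 116 in the double mutants of the other table. Library 0 was the lowest of its group in all 3 groups, and Smad4 KO 0 lay just below the lowest control, while the groups overlapped. The differences were -0.21 (interval -0.70 to 0.28, limma adjusted p = 0.594) and -0.07 (interval -0.54 to 0.41, limma adjusted p = 0.833). The second was 0.0168 with quantile normalization, so its sign depended on the scaling. The 14 markers of cycling cells had a median log2 fold change of 0.18 in Smad4 KO (0 called) and 0.40 in the double mutants (3 called higher). Of all genes, 0.0338% were called in Smad4 KO and 9.39% were called higher in the double mutants. The part of cycling cells in the level of Tfrc was not tested.

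Fth1 encodes the ferritin heavy chain, which oxidises iron for storage. It was at 746, 704 and 589 FPKM in the double mutants against 779, 1042 and 1129 in controls, 69.1% of control. The groups did not overlap, but control 0 was only slightly above double mutant 0. Its log2 fold change of -0.52 (SE 0.21) did not pass (limma adjusted p = 0.125). Smad4 KO 1 and 2 were at 587 and 670 FPKM, below the controls (756, 984 and 1082), and Smad4 KO 0 at 922 was among them (difference -0.38, interval -1.02 to 0.26, limma adjusted p = 0.471).

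Ftl1, the ferritin light chain, lay on the other side of the controls from Fth1. Both carry a 5′ UTR hairpin of the form searched for, and these mRNA levels do not bear on its action on translation. It was at 297, 162 and 247 FPKM in Smad4 KO against 162, 133 and 157 in controls, and at 256, 243 and 191 in the double mutants against 167, 141 and 164. All mutant libraries were above all controls in both tables, with Smad4 KO 1 and control 0 level to within 1 FPKM. Neither difference passed (log2 fold changes 0.60, SE 0.24, and 0.54, SE 0.15; limma adjusted p = 0.259 and 0.0561). The second passed with quantile normalization (limma adjusted p = 0.0305) and when rescaled without the 50 highest genes (0.0363). The ratio of Fth1 to Ftl1 within a library, chosen after the values were seen and so not tested, does not depend on library scaling. It was 4.68, 7.4 and 6.88 in controls, 3.1, 3.62 and 2.72 in Smad4 KO, and 2.92, 2.9 and 3.09 in the double mutants. All 6 mutant libraries were below all 3 controls, which both groups share. In the double mutants this had to follow, since Fth1 already lay below and Ftl1 above all controls. Their means were 3.14 ± 0.451 and 2.97 ± 0.108, against 6.32 ± 1.45 (SD, n = 3 each).

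Aco1 encodes iron regulatory protein 1, which serves as cytosolic aconitase while it holds an iron-sulphur cluster. In the double mutants it was at 31.4, 42.2 and 38.4 FPKM against 51.3, 63.5 and 73.9 in controls. All double mutants lay below all controls, with means of 37.4 ± 5.49 and 62.9 ± 11.3 FPKM (SD, n = 3 each). The log2 fold change was -0.73 (SE 0.17, limma adjusted p = 0.0369; exact two-sided permutation p = 0.1). Smad4 KO libraries were at 44.4, 39.4 and 31.3 FPKM against 49.8, 60 and 70.8, 63.7% of control, again with no overlap. That difference of -0.64 (SE 0.19, interval -1.09 to -0.18) did not pass (limma adjusted p = 0.175, unadjusted p = 0.0139). The call in the double mutants held without control 0 and ended when any of the other 5 libraries was left out (limma adjusted p from 0.0619 to 0.115), with sex as a covariate (0.0631) and with no filter (0.0592). Within males Aco1 was at 51.3 and 63.5 FPKM in the controls and 42.2 in double mutant 1, and within females at 73.9 in control 2 and 31.4 and 38.4 in double mutants 0 and 2.

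Ireb2 encodes iron regulatory protein 2, which is degraded when iron is plentiful. It was at 28.7, 32.6 and 26.5 FPKM in the controls and 27.6, 27.3 and 24.1 in Smad4 KO (difference -0.15, interval -0.43 to 0.14, limma adjusted p = 0.535). The double mutants had 21.8, 30 and 29.3 FPKM against 29.6, 34.6 and 27.6 (difference -0.18, interval -0.56 to 0.19, limma adjusted p = 0.432). Double mutant 0 was the lowest library and the rest overlapped. The ratio of Aco1 to Ireb2 within a library, also chosen after the values were seen, was 1.73, 1.84 and 2.67 in controls, 1.61, 1.44 and 1.3 in Smad4 KO and 1.44, 1.41 and 1.31 in the double mutants. The groups did not overlap, though Smad4 KO 0 and control 0 were close.

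**Figure D3:**
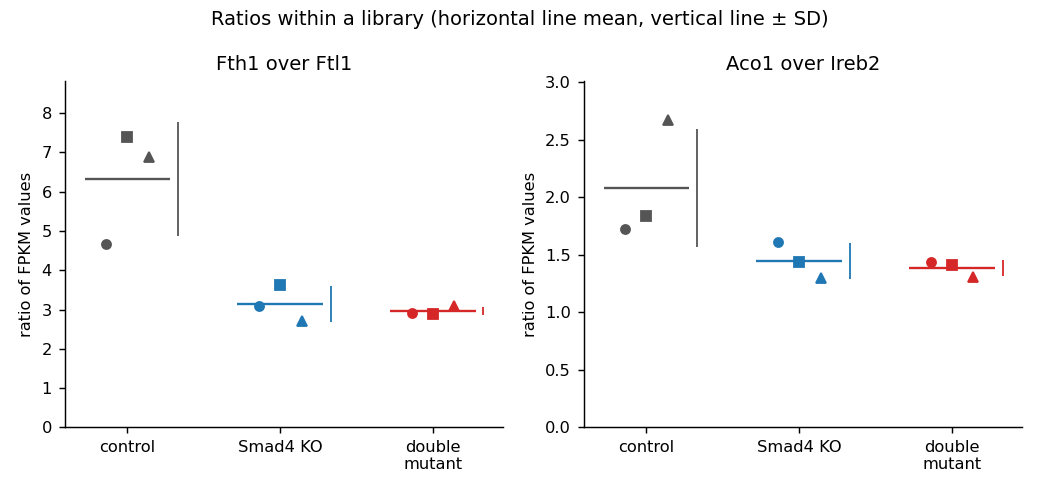
FPKM of Fth1 divided by Ftl1 (left) and of Aco1 divided by Ireb2 (right) within each library, with the mean and SD of 3 libraries; controls are from the table shared with Smad4 KO. The ferritin ratio is 4.68 to 7.4 in controls and 2.72 to 3.62 in the 6 mutant libraries.

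Products of differentiated epithelial cells were among the genes most like Heph and Cybrd1 across libraries. Likeness was measured as the smaller of the 2 Pearson correlations over the 6 libraries of each table, and the tables share their controls. Closest to Heph were Hes2 (0.998), Mttp (0.995), which loads lipid onto chylomicrons, and Lmo7 (0.993). Closest to Cybrd1 were Sec62 (0.984), a translocation factor of the endoplasmic reticulum, and 2 Paneth cell products, Itln1 (0.979) and Defa3 (0.971), whose reads may be shared with near-identical copies. Mttp was at 210, 263 and 502 FPKM in the controls and 541, 117 and 113 in Smad4 KO 0, 1 and 2. Defa3 was at 255, 132 and 104 FPKM in the controls and 14.5, 129 and 265 in Smad4 KO.

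Smad4 KO 0 was thus high in Heph and low in Cybrd1, and it was also high in enterocyte and low in Paneth cell transcripts. The mean log2 level of the 18 enterocyte markers relative to the control mean was 0.64 for Smad4 KO library 0, -2.41 for library 1 and -1.67 for library 2. It was -2.51, -1.64 and -1.81 in double mutants 0, 1 and 2, and controls 0, 1 and 2 of the first table were at -0.53, -0.26 and 0.79. Limma called 13 of 18 enterocyte markers lower and none higher in the double mutants (median log2 fold change -1.81). Of all genes there, 9.09% were called lower and 9.39% higher. In Smad4 KO it called 0 of the 18 (median -0.91), where 0.0338% of all genes were called. The 8 Paneth cell markers were at -3.18, -0.21 and 1.04 in Smad4 KO and at 0.38, -1.19 and -1.18 in the double mutants, with controls at 1.3, -0.70 and -0.60. Itln1, named above among the genes most like Cybrd1, is itself in the Paneth cell list, so the 2 descriptions are not independent. The part of these cell markers in the differences of Heph and Cybrd1 was not tested.

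**Figure D4:**
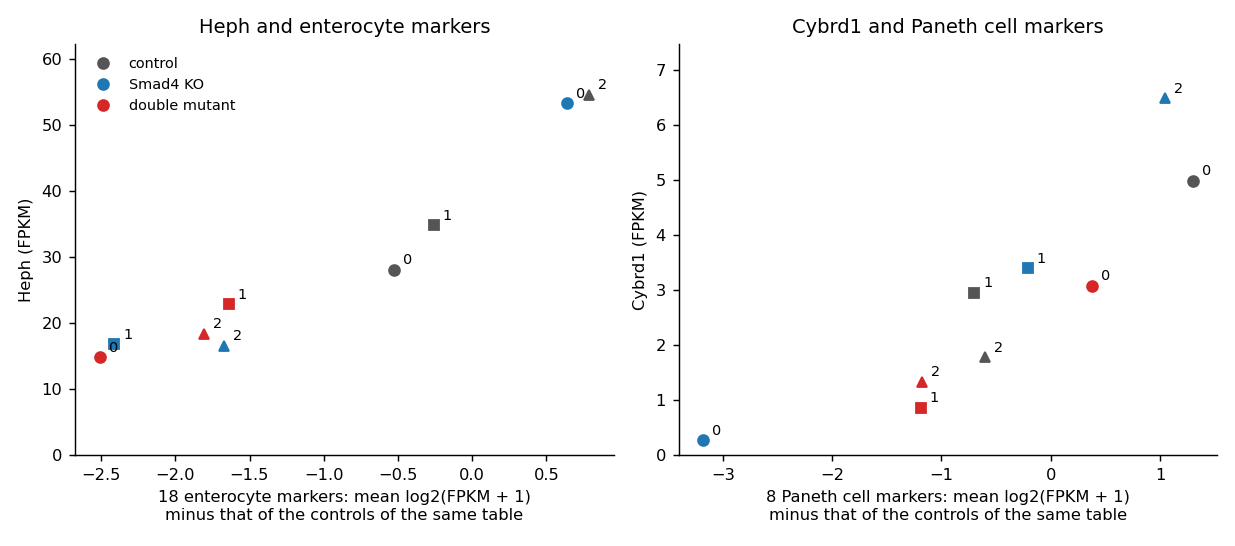
FPKM of Heph against the mean log2(FPKM + 1) of 18 enterocyte markers (left) and of Cybrd1 against 8 Paneth cell markers (right), each relative to the control mean of the same table; each point is 1 of 9 libraries, labelled with its number, and controls are from the table shared with Smad4 KO. Smad4 KO 0 lies beside control 2 on the left (53.3 and 54.6 FPKM) and lowest of all on the right (0.273 FPKM). The Paneth cell markers include Itln1, which is among the genes most like Cybrd1.

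Other members of the set had other neighbours. Aco1 was closest to Rab19 (0.995), to Arg2 (0.992), a mitochondrial arginase, and to Sucla2 (0.992), a subunit of succinyl-CoA synthetase. Arg2 was among the called genes in the double mutants, at 13.4, 35.4 and 31.1 FPKM against 119, 269 and 365 (log2 fold change -3.15, SE 0.51, limma adjusted p = 0.0179). Fth1 was closest to Ndufa1 (0.988), a subunit of respiratory complex I, Kcnk5 (0.97) and Pla2g12b (0.963). In Smad4 KO 0, 1 and 2 Fth1 was at 922, 587 and 670 FPKM and Pla2g12b at 56.9, 16.2 and 15.8. Library 0 was thus the highest of the group for both, as it was for Heph, Mttp and the enterocyte markers. The part of those markers in the difference of Fth1 was not tested. Slc11a2 was closest to Slc12a7 (0.967), Slc52a2 (0.956) and Gucy2c (0.954), the guanylin receptor. For Ireb2 the nearest were Kif3b (0.958), Ubxn7 (0.954) and Mier1 (0.95), for Tfrc Tnfsf13 (0.937), Mrpl15 (0.932) and Efcab2 (0.915), and for Slc40a1 Cr1l (0.92), Sypl2 (0.919) and Zfp58 (0.909). With 6 libraries per table, high values are found for many genes, and they are given as a description.

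Macrophages also express Slc40a1 and Hmox1, since they recycle iron from red blood cells. The 12 fibroblast, muscle and endothelial markers summed to 0.462 to 1.98 FPKM in the controls, to 10.6, 2.54 and 70.1 in Smad4 KO and to 45, 1.9 and 2.64 in the double mutants. The 14 macrophage and dendritic cell markers summed to 17.7 to 27.2 FPKM in the controls, to 40.2, 23.4 and 69.4 in Smad4 KO and to 48.5, 26.6 and 27.2 in the double mutants, with up to 4 of them at 0 in a library. In these sums the highest libraries were Smad4 KO 2 and double mutant 0. Slc40a1 was at 1.32 FPKM in the former and 1.35 in the latter, at the lower edge of the controls. Within its group double mutant 0 was the highest, with double mutants 1 and 2 at 0.716 and 0.705. Smad4 KO 2 lay between Smad4 KO 0 and 1, at 1.12 and 3.19. The part of these cells in the level of Slc40a1 was not tested. The Cybrd1 difference in Smad4 KO was 0.51 without Smad4 KO 0 and 0.07 without control 0, in place of -0.22. It stayed negative when any other library was left out.

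Calls in the wider iron pathway went in both directions and were about as frequent as among all genes. Of 39 further genes of cellular iron and copper handling, 26 were tested. In Smad4 KO limma called none of them (6 had an unadjusted p below 0.05, as did 19.1% of all genes; median log2 fold change -0.01). In the double mutants it called 3 higher and 3 lower (median -0.04), where 9.39% of all genes were called higher and 9.09% lower. Slc31a1, the copper importer, fell to 38.9, 46.6 and 38.1 FPKM from 61, 62.4 and 63.1 (log2 fold change -0.59, SE 0.10, limma adjusted p = 0.0206). Copper is the cofactor of hephaestin, and a link between Slc31a1 and the mRNA level of Heph was not tested. Atp7b, a copper-exporting pump, fell to 3.7, 4.98 and 4.83 FPKM from 8.04, 7.48 and 7.27 (-0.65, SE 0.13, limma adjusted p = 0.0246). Cubn, an endocytic receptor, fell to 0.435, 0.454 and 1.12 FPKM from 5.05, 4.33 and 16.5 (-2.33, SE 0.47, limma adjusted p = 0.027). Ltf, the iron-binding protein lactoferrin, rose to 2.07, 2.81 and 1.77 FPKM from 0.474, 0.431 and 0.457 (1.13, SE 0.18, limma adjusted p = 0.0177). The other 2 called higher were Pcbp1, an iron chaperone, and Steap1, named outside the rule. Slc31a1 in Smad4 KO was at 39.5, 43.9 and 40.7 FPKM against 59.1, 58.9 and 60.5, with no overlap, but did not pass (-0.51, SE 0.09, limma adjusted p = 0.111).

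Of 26 genes of iron-sulphur cluster assembly, all tested, 4 were called higher and none lower in the double mutants (median 0.13), against 9.39% higher and 9.09% lower among all genes. Glrx5, a mitochondrial glutaredoxin that hands on clusters, rose to 95.8, 90.2 and 90.2 FPKM from 57.8, 66.1 and 53.8 (log2 fold change 0.63, SE 0.11, limma adjusted p = 0.019). Nubp1 and Nubp2, the scaffold of cytosolic cluster assembly, rose to 29.2 ± 3.26 from 20 ± 2.4 and to 40.9 ± 3.12 from 31.9 ± 0.862 FPKM, and Fdx1l, a mitochondrial ferredoxin, to 27.9 ± 1.96 from 19.4 ± 2.89 (SD, n = 3 each; limma adjusted p = 0.0395, 0.0447 and 0.0411). In Smad4 KO none passed limma and 7 had an unadjusted p below 0.05, against 19.1% of all genes (median 0.09). There Glrx5 was at 80.6, 72.9 and 83.6 FPKM against 56, 62.4 and 51.6 (0.47, SE 0.12, limma adjusted p = 0.147).

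Among 18 tested genes of haem synthesis and breakdown, 1 was called lower and none higher in the double mutants (median -0.14), where 18.5% of all genes were called. None was called in Smad4 KO, where 2 had an unadjusted p below 0.05, against 19.1% of all genes (limma, median -0.08). The called gene was Abcb10, a mitochondrial transporter needed for haem synthesis, at 11.8, 14.1 and 10 FPKM against 16.7, 16.5 and 18.1 (log2 fold change -0.49, SE 0.13, limma adjusted p = 0.0477). Hmox1, which breaks haem down and frees its iron, was at 3.75, 0.561 and 2.61 FPKM in Smad4 KO against 0.956, 0.199 and 0.592, and at 2.57, 1.2 and 0.796 in the double mutants against 0.985, 0.211 and 0.617. The groups overlapped in both tables (limma adjusted p = 0.318 and 0.221). Hamp, the gene of the iron hormone hepcidin, was listed at 0 in every control, at 0.407 in Smad4 KO 0 and at 0.294 in double mutant 0.

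Hypoxia-inducible factor 2, encoded by Epas1, is the transcription factor best known for raising Slc11a2, Cybrd1 and Slc40a1 in the iron-deficient intestine. Epas1 was at 1.66, 1.35 and 1.43 FPKM in the double mutants against 2.74, 2.14 and 2.51 in controls. All double mutants lay below all controls, and the difference of -0.48 (SE 0.14) did not pass (limma adjusted p = 0.066), though it did with no mean-variance trend (0.038). In Smad4 KO it overlapped the controls (3.52, 1.64 and 2.18 against 2.66, 2.02 and 2.4 FPKM; limma adjusted p = 0.995). Of 21 tested hypoxia factors and targets, 2 were called higher and 4 lower in the double mutants (median -0.12), where 18.5% of all genes were called. None was called in Smad4 KO, where 6 had an unadjusted p below 0.05, against 19.1% of all genes (limma, median -0.08). The glycolytic regulator Pfkfb4 fell to 8.06 ± 0.809 from 23.2 ± 5.27 FPKM and the mitophagy receptor Bnip3 to 0.469 ± 0.0918 from 1.65 ± 0.205 (SD, n = 3 each; limma adjusted p = 0.0118 and 0.0256). The carbonic anhydrase Car12 rose to 29.4 ± 4.22 from 12.5 ± 2.61 FPKM and the glucose transporter Slc2a1 to 21.5 ± 3.81 from 11.9 ± 1.65 (SD, n = 3 each; limma adjusted p = 0.0163 and 0.0273). The lists' called genes in the double mutants also depended on single libraries, controls included. Of the 6 fits that each left out 1 library, Nubp1, Nubp2, Atp7b and Bnip3 passed in 0, Abcb10, Fdx1l and Slc2a1 in 1, Cubn and Glrx5 in 3, and Ltf, Slc31a1, Pfkfb4 and Car12 in 4. Without double mutant 0, and without double mutant 2, none of the 4 lists had a called gene in limma, and of all genes 139 and 30 were called in place of 2173.

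Set side by side as percentages of the control mean of their own table, Aco1 stood at 73.8, 65.4 and 52.1% in Smad4 KO and 49.9, 67.1 and 61.1% in the double mutants. Heph stood at 136, 43 and 42.4% and at 36.2, 56 and 45%, Fth1 at 98.1, 62.4 and 71.3% and at 75.8, 71.6 and 59.9%, and Slc40a1 at 44.8, 127 and 52.7% and at 51.5, 27.3 and 26.9%. The spread of Smad4 KO covered most of the double mutant values of Aco1 and Heph, while 2 double mutants lay below all Smad4 KO libraries for Slc40a1. Differences between the mutant groups were not tested, because they lie in tables that were normalized separately.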

How the data were processed

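The deposited values are FPKM per gene, made by the authors with TopHat2 2.1.1, Cuffnorm 2.2.1 and Cuffdiff 2.2.1 on mm9, per the submitters' processing notes; which annotation they used is not given here. The Illumina TruSeq RNA v2 kit named in the labels does not mark strand, so overlapping genes cannot be separated. Each control differs between the 2 tables by 1 factor (1.03, 1.06 and 1.04 for controls 0, 1 and 2), so tests were made within a table. Limma 3.58.1 in R 4.3.3 was run on log2(FPKM + 1), keeping genes whose mean over the 6 libraries reached 1 FPKM, with a mean-variance trend, two-sided, and Benjamini-Hochberg adjustment over all genes tested; called means an adjusted p below 0.05. Before use, the fit was tested on simulated data in which 200 genes changed. The simulated noise was drawn separately for each gene, so it held no differences in cell types shared by many genes. It is not used as support for the calls. Exact permutation tests used scipy 1.17.1.

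The members and gene lists were chosen with earlier results of these data known. Named genes are the 8 members, Smad4, Ftl1, Epas1, Hamp and Hmox1, up to 4 called genes with the smallest p per pathway list and comparison, and the 3 genes most like each member, leaving out predicted and small RNA genes; others are said to be outside this rule. The cell type lists were used as a check of the tissue. Alternatives were other pseudocounts, filters and scalings, no trend, a replicate block, sex as a covariate and leaving out each library.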

Additional observations from a re-analysis of the deposited data

How the results depend on the processing

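Under 16 alternatives per comparison no iron gene was called higher in the double mutants and none was called in Smad4 KO. In the double mutants the 2 genes called lower became 0 with no filter, 1 with no mean-variance trend, 0 with sex as a covariate, and 0 to 3 on leaving out a library (3 without control 0, when Slc40a1 joined them). Genes called in all numbered 1392 with no filter and 30 to 1555 on leaving out a library, against 2173. In Smad4 KO the 4 called genes became 2 with pseudocount 5 or with sex as a covariate, 8 with quantile normalization, 7 without the 50 highest genes, 1 with a replicate block and 5 to 16 on leaving out a library. Signs that turned, none of them called, were Tfrc in the double mutants (0.0168 with quantile normalization, -0.24 to 0.0673 on leaving out a library), and in Smad4 KO Cybrd1 (-0.77 to 0.51) and Slc11a2 (-0.18 to 0.10) on leaving out a library, and Epas1, at 0.00, with pseudocount 0.1 (-0.0089), median-of-ratios factors (-0.0167), quantile normalization (-0.0603) and on leaving out a library (-0.21 to 0.18). The causes were not tested.

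Replicate numbers are shared by the groups, but same-numbered libraries did not deviate together in every pair (correlations -0.111, 0.223 and -0.0987 in Smad4 KO, and 0.072, 0.132 and 0.0374 in the double mutants, where every library did correlate best with its own number). With a replicate block, 1602 genes and the same count of 2 iron genes were called in the double mutants. The absolute depth is unknown, so no counting limit can be given for Slc40a1 and Cybrd1, which were not tested under a mean of at least 5 FPKM.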
